A study of Mus musculus with 4 samples.

Results

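The mitochondrial carriers of the SLC25 family were examined in mouse liver after activation of PPARα, the fatty acid-sensing nuclear receptor, with the synthetic agonist Wy14643. Members were all genes whose annotated symbol starts with Slc25a, except Slc25a1, Slc25a15 and Slc25a20, together with the uncoupling proteins Ucp1, Ucp2 and Ucp3. Of 12393 genes named on the array, 33 met this rule, represented by 64 probe sets. Other genes that the rule names, Ucp2 among them, were not analysed here.

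Carriers of this family sit in the inner mitochondrial membrane, with a few exceptions in peroxisomes or the outer mitochondrial membrane, and move nucleotides, phosphate, carboxylates, amino acids and cofactors between the matrix and the cytosol. In liver they connect mitochondrial fatty acid oxidation with gluconeogenesis, ureagenesis and the export of ATP. Most of them exchange one substrate for another, while uncoupling proteins let protons back into the matrix.

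The 4 groups of male mice, aged 12 to 20 weeks, were wild-type mice on control chow, wild-type mice on chow with 0.1% Wy14643, PPARα-null mice on control chow and PPARα-null mice on chow with 0.1% Wy14643, each fed for 5 days. The strain label is 129S1/SvImJ for wild-type mice but 129S4/SvJae for PPARα-null mice, so the absence of PPARα and the substrain cannot be told apart. Liver RNA of 5 mice per group by the design text was pooled, and 1 array was hybridized per pool, so there are no replicates, no test could be made, and with so few arrays every ratio is imprecise. For the wild-type Wy14643 sample, whose description text repeats the control's, the title was followed.

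Values are intensities on the linear scale, which can be compared between arrays for 1 probe set but not between genes. Where 4 intensities are given in a row, they run from wild-type liver without and with Wy14643 to PPARα-null liver without and with it. Genes not expressed in liver (46 genes, 73 probe sets) had a 90th percentile of 12.8, which was taken as background, and between 53.5% and 54.4% of probe sets lay above it on each array. A gene was counted as higher or lower once the ratio reached 1.5, provided that 1 or both arrays of the comparison were above background. Ppara itself had 847 and 1250.1 in wild-type liver without and with Wy14643, against 326 and 428 in PPARα-null liver, but the position of its probe set relative to the deletion is not given in the sources used here. All 9 measured hepatocyte markers were above background on every array. Of the 33 carriers, 22 were above background on all 4 arrays, 5 on some of them (Slc25a29, Slc25a36, Slc25a38, Ucp1 and Ucp3) and 6 on none (Slc25a2, Slc25a14, Slc25a24, Slc25a35, Slc25a48 and Slc25a53).

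**Figure D1:**
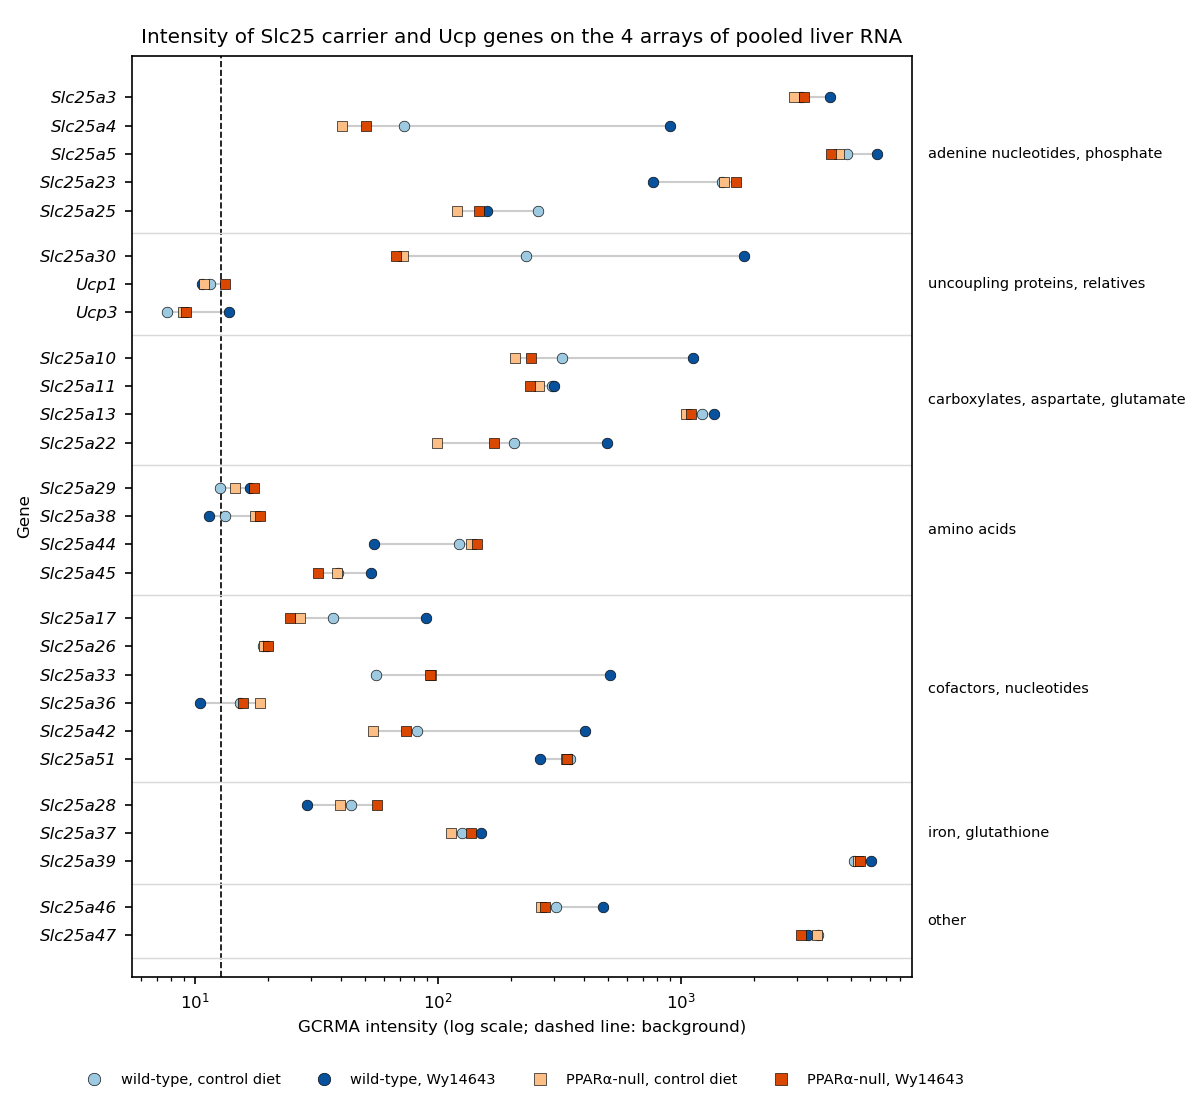
Intensity of the 27 carriers above background on at least 1 array, on a log axis and grouped by role, with 1 point for each of the 4 arrays of pooled RNA and the background of 12.8 as a line. Slc25a4, Slc25a30, Slc25a33, Slc25a42 and Slc25a10 had a point for wild-type mice fed Wy14643 far to the right of their other points, while those of Slc25a23 and Slc25a44 lay to the left.

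Wy14643 went with higher levels of carriers of ADP and ATP (Slc25a4), pyrimidine nucleotides (Slc25a33), dicarboxylates (Slc25a10), coenzyme A (Slc25a42), glutamate (Slc25a22) and peroxisomal cofactors (Slc25a17) in wild-type liver, and of the uncoupling protein relative Slc25a30. Slc25a46 and, close to background, Ucp3 were the other higher members. Lower levels were found for the ATP-Mg/phosphate carriers Slc25a23 and Slc25a25, the branched-chain amino acid carrier Slc25a44 and the iron carrier Slc25a28. Of 26 carriers above background on 1 or both arrays, 9 (34.6%) were at least 1.5-fold higher on Wy14643 in wild-type liver, against 14.8% of the 7690 genes counted, and 4 (15.4%) were lower, against 15.8% of genes. The share of lower carriers was thus near that of all genes. With background in place of values below it, 8 were higher and 4 lower. The median log2 ratio was 0.33 over the carriers and 0.02 over all genes, and 7 carriers were at least 2-fold higher while 1 was at least 2-fold lower.

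On the same diet in PPARα-null liver, 25 of 26 carriers lay between the thresholds. Slc25a22 was the 1 carrier at least 1.5-fold higher (3.85%), against 2.26% of 7605 genes, and no carrier was lower, against 4.38% of genes. The median log2 ratio of the carriers there was 0.07. The log2 ratio of Wy14643 over control diet was then compared between the genotypes. In wild-type liver it was higher by at least the same threshold for 8 of 27 carriers (Slc25a4, Slc25a10, Slc25a17, Slc25a30, Slc25a33, Slc25a42, Slc25a45 and Ucp3), against 16.3% of 7949 genes. Ucp3 passed background only in the wild-type Wy14643 pool, and its difference came to 0.11 with values raised to background, under the threshold. The log2 ratio was lower in wild-type liver by that threshold for 4 carriers (Slc25a23, Slc25a25, Slc25a28 and Slc25a44), against 15.8% of genes. For each of these 4 it was negative in wild-type liver.

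**Figure D2:**
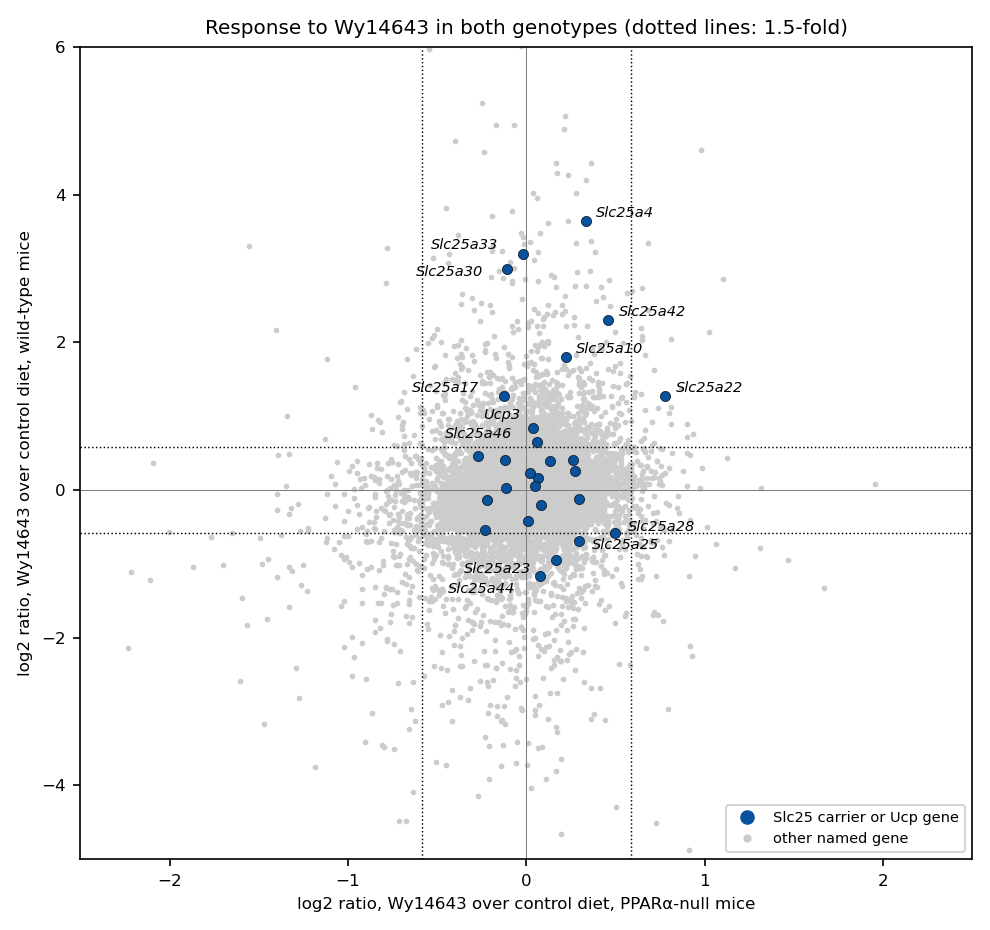
Log2 ratio of Wy14643 over control diet in wild-type mice (vertical axis) and in PPARα-null mice (horizontal axis) for the 27 carriers above background on at least 1 array (coloured, the named ones past 1.5-fold) and for all other genes (grey, 22 of the 7949 genes lie outside the axes). The carriers spread from -1.16 to 3.64 along the wild-type axis and lay between -0.27 and 0.78 along the PPARα-null axis.

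Between the genotypes on Wy14643, 11 of 27 carriers (40.7%) reached a 1.5-fold higher level in wild-type liver, against 16.4% of 7772 genes, and 5 (18.5%) were lower, against 17.4% of genes. On the footing of background for dim values, these counts were 10 and 3. The median log2 ratio was 0.31 for the carriers and -0.02 for all genes. On the control diet, 6 of 25 carriers (24%) were higher in wild-type liver, against 2.45% of 7461 genes, and 1 (4%) was lower, against 2.47% of genes. Comparisons that share an array, such as both comparisons with the wild-type Wy14643 pool, are not independent of each other, so their values are given side by side for each carrier.

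**Figure D3:**
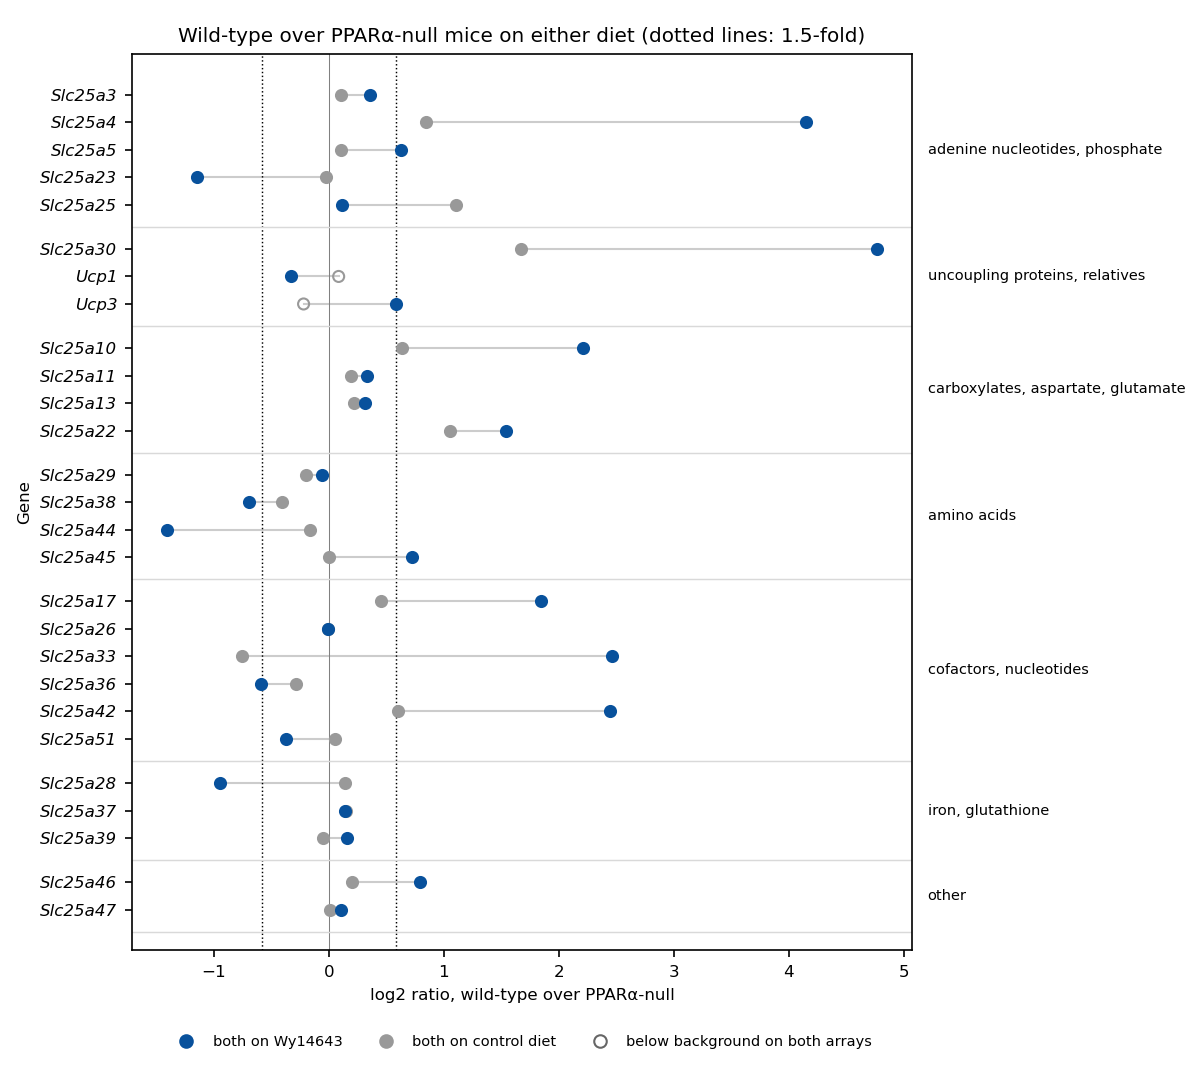
Log2 ratio of wild-type over PPARα-null liver for each carrier above background on at least 1 array, on the control diet and on Wy14643, with the 1.5-fold thresholds as lines. Slc25a30 had the highest ratio of the carriers on both diets, at 1.67 and 4.76, and Slc25a33 lay on the lower side on the control diet at -0.75 and on the higher side on Wy14643 at 2.47.

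The promoters of the 3 carriers with the highest ratio for Wy14643 in wild-type liver, and of Ucp3, are shown. PPARα with its partner RXR binds a direct repeat of the half-site AGGTCA with 1 base between the copies (DR1). Ucp3 lay close to background and is not among these 3. Its promoter was the only one with a DR1 among those of the higher carriers. Against background, however, Ucp3 was at least 1.08-fold higher, under the 1.5-fold threshold. The DR1 promoters of Slc25a45 and Slc25a47, carriers between the thresholds, are not shown. Each promoter shown runs from 250 bases before to 50 bases after the gene start in the RefSeq table of build GRCm38.p6, on the gene's strand. Slc25a4 lies at chr8:46211013-46211312 on the minus strand, Slc25a30 at chr14:75786988-75787287 on the minus strand, Slc25a33 at chr4:149774218-149774517 on the minus strand and Ucp3 at chr7:100472741-100473040 on the plus strand. Capitals mark each AGGTCA on either strand and each DR1 with at most 2 of its 12 half-site bases off, so a sequence without capitals holds neither.
Slc25a4: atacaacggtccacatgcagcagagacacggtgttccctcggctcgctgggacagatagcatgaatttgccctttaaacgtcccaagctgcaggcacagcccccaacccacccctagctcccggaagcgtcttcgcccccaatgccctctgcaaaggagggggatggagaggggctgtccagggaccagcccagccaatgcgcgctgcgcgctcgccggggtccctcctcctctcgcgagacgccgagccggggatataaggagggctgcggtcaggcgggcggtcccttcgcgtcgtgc
Slc25a30: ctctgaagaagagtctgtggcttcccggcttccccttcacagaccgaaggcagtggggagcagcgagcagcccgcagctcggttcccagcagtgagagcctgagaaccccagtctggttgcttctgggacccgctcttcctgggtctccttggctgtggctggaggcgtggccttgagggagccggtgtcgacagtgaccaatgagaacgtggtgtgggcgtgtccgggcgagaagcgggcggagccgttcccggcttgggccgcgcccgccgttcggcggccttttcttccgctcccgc
Slc25a33: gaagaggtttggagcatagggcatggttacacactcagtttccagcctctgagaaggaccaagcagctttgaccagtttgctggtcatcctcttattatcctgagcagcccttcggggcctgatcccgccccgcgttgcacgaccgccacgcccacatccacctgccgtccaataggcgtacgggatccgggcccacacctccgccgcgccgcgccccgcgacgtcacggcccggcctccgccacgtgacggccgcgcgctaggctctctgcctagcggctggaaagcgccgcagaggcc
Ucp3: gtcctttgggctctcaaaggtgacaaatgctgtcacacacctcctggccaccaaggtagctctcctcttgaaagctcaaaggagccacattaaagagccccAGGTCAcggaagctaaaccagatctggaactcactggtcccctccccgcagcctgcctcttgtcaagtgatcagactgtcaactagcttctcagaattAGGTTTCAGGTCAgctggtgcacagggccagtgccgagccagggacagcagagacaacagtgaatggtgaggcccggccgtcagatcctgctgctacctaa

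AGGTCA was present in 16.3% of the 32851 promoters in that table and a DR1 so defined in 3.86%, the matches to a DR1 overlapping those to AGGTCA in part. The table had 34 promoters of 26 carriers. Of the 10 promoters of 8 carriers that were higher on Wy14643 in wild-type liver, 1 had AGGTCA and a DR1. It was that of Ucp3, whose call rests on values below background. Of the 6 promoters of 3 lower carriers none had either. Among 10 promoters of 10 carriers between the thresholds, 3 had AGGTCA (Slc25a39, Slc25a45 and Slc25a47) and 2 of these a DR1 (Slc25a45 and Slc25a47). A match is a description of the letters in this window, and sites farther from the start were not searched.

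Among the carriers of adenine nucleotides and phosphate, Slc25a4, the ADP/ATP exchanger that prevails in heart and skeletal muscle, had an intensity of 72.6 in wild-type liver on the control diet and 906 on Wy14643, against 40.4 and 50.9 in PPARα-null liver. The wild-type Wy14643 pool stood far above the other pools, 12.5-fold above the wild-type control and 17.8-fold above PPARα-null liver on the same diet. A further pair of its probe sets gave 36.5, 517, 24.8 and 24.6, and 20.8, 380, 21.1 and 15.1, in the same order of pools. They carried the same pattern on Wy14643, but their ratio between the genotypes on the control diet was 1.47-fold and 1.01-fold, where the brightest probe set gave 1.80-fold. As with Slc25a5 below, a probe set can bind related transcripts, here the one that gave 36.5. The remaining Slc25a4 probe set, the only one without a suffix to its name, was below background on all arrays. Of 5 skeletal muscle markers, Ckm, Myh4 and Tnnt3 were below background on all arrays. The other two passed it in every pool but the PPARα-null control, with 35.5, 20.6, 11.9 and 29.4 for the skeletal actin Acta1 and 20.5, 15.7, 11.3 and 15.3 for the myosin light chain Mylpf, and like Slc25a4 both passed the 1.5-fold threshold in favour of wild-type liver on the control diet, though not on Wy14643. The summed intensity of the 5 muscle markers was 82.7, 62.0, 44.9 and 71.9 across the 4 pools, and the part of muscle RNA in the Slc25a4 values was not tested.

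Slc25a5, an ADP/ATP exchanger expressed widely outside muscle, differed far less, with 4834 and 6397 in wild-type and 4501 and 4150.3 in PPARα-null liver without and with Wy14643. It was 1.32-fold higher with Wy14643 in wild-type liver and 1.54-fold higher than in PPARα-null liver on that diet. Its 8 probe sets gave log2 ratios between the genotypes on Wy14643 from 0.24 to 0.74, and several of them can bind related transcripts. Slc25a3, which imports phosphate for ATP synthesis, followed with 3132, 4111, 2919 and 3202, a 1.31-fold higher level on Wy14643 in wild-type liver that stayed under the threshold.

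Slc25a23 and Slc25a25 encode calcium-dependent carriers that exchange ATP-Mg for phosphate and so set the adenine nucleotide content of the matrix. Slc25a23 had 1484 in wild-type liver on the control diet and 766 on Wy14643, against 1510.2 and 1692 in PPARα-null liver. Only the wild-type Wy14643 pool was low, 1.94-fold below its control and 2.21-fold below PPARα-null liver. Slc25a25 had 258 and 159.9 in wild-type and 120.3 and 148 in PPARα-null liver. The wild-type control pool was thus the high one, 2.15-fold above PPARα-null liver on the same diet, and on Wy14643 the genotypes were 1.08-fold apart. The third carrier of this kind, Slc25a24, was below background throughout.

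Of the uncoupling proteins and their relatives, Slc25a30, an uncoupling protein relative first described in kidney, had 229.9 in wild-type liver on the control diet and 1822 on Wy14643, against 72.1 and 67.1 in PPARα-null liver. It was 3.19-fold higher in wild-type liver than in PPARα-null liver already on the control diet and 27.2-fold higher on Wy14643, place 20 and place 22 from the top among the 7461 and 7772 genes counted. Wy14643 went with a 7.93-fold higher level in wild-type liver and a 1.08-fold lower one in PPARα-null liver. Another 3 of its 5 probe sets were above background on some array, and all of these were higher in wild-type liver on Wy14643, by log2 ratios of 5.26, 3.61 and 2.48. The last was above background only in the wild-type Wy14643 pool, and against background its log2 ratio was at least 1.76.

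Ucp3, the uncoupling protein of skeletal muscle, was above background only in wild-type mice fed Wy14643, at 13.8, with 7.71 on the control diet and 8.98 and 9.22 in PPARα-null liver. Against background it was at least 1.08-fold higher in that pool, so its place among the higher carriers rests on values below background. Ucp1, the heat-producing uncoupling protein of brown fat, had 11.6, 10.7, 10.9 and 13.4 and passed background only in PPARα-null liver on Wy14643. Among the 5 measured markers of brown adipocytes, Adipoq and Dio2 were below background on all arrays. The brown fat and lipid droplet gene Cidea reached 47.0 and the fatty acid-binding protein gene Fabp4 3181 in wild-type liver on Wy14643, against 9.31 and 50.6 on the control diet. Ppargc1a, a coactivator of mitochondrial gene expression, went the other way, with 50.4, 19.6, 41.2 and 28.7, a 2.57-fold lower level on Wy14643 in wild-type liver. The summed intensity of the 5 markers was 127, 3264, 147 and 109.8 across the pools, nearly all of it Fabp4 in wild-type liver on Wy14643, and its relation to the carriers was not tested.

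The carriers of carboxylates, aspartate and glutamate held 2 higher members and no lower one. Slc25a10, which exchanges malate and succinate for phosphate, had 324 and 1127 in wild-type and 208 and 243 in PPARα-null liver. It was 3.48-fold higher with Wy14643 in wild-type liver, 4.64-fold higher than in PPARα-null liver on that diet and 1.55-fold higher on the control diet. The other Slc25a10 probe set gave 285, 978, 172 and 171, with the wild-type Wy14643 pool on top again.

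Slc25a22, which imports glutamate with a proton, had 205 and 497 in wild-type and 99.2 and 170.5 in PPARα-null liver. It was higher on Wy14643 in both genotypes, 2.42-fold in wild-type and 1.72-fold in PPARα-null liver, and higher in wild-type liver on both diets, 2.07-fold on the control diet and 2.92-fold on Wy14643. The difference between the genotypes in the change on Wy14643 was 0.49 on the log2 scale and lay under the threshold. Slc25a11, which exchanges 2-oxoglutarate for malate, had 296, 302, 259.9 and 240.2, and Slc25a13, the aspartate/glutamate exchanger of liver known as citrin, had 1220.4, 1365, 1049 and 1097. Both of these partners in the malate-aspartate shuttle stayed within 1.26-fold in every comparison.

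Of the amino acid carriers, Slc25a44, which imports branched-chain amino acids, had 122 and 54.7 in wild-type and 137 and 145 in PPARα-null liver. The wild-type Wy14643 pool was the low one, 2.24-fold below its control and 2.64-fold below PPARα-null liver. A further probe set gave 67.7, 30.7, 65.0 and 43.3, lower on Wy14643 in both genotypes, by 1.14 on the log2 scale in wild-type and by 0.59 in PPARα-null liver, so the probe sets differ on the null response. Slc25a38, the glycine carrier used in heme synthesis, had 13.3 and 11.5 in wild-type and 17.6 and 18.6 in PPARα-null liver. Since 11.5 is below background, it was at least 1.46-fold lower in wild-type liver than in PPARα-null liver on Wy14643. Slc25a45 had 38.7 and 53.0 in wild-type and 38.7 and 32.1 in PPARα-null liver, 1.65-fold apart on Wy14643 and level on the control diet. Slc25a29, which carries basic amino acids, lay near background at 12.7, 16.8, 14.6 and 17.5.

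Among carriers of cofactors and nucleotides, Slc25a33, which imports pyrimidine nucleotides for mitochondrial DNA and RNA synthesis, had 55.8 and 513 in wild-type and 94.0 and 92.9 in PPARα-null liver. It was the 1 carrier at least 1.5-fold lower in wild-type liver than in PPARα-null liver on the control diet, 1.69-fold, and yet was 5.53-fold higher on Wy14643, with a 9.20-fold ratio to the control diet in wild-type liver. In PPARα-null liver its values on both diets were 1.01-fold apart. Slc25a36, another pyrimidine nucleotide carrier, had 15.3, 10.5, 18.6 and 15.8, so it was at least 1.24-fold lower in wild-type liver on Wy14643.

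Slc25a42, which brings coenzyme A into the matrix, had 81.7 and 403 in wild-type and 53.9 and 74.1 in PPARα-null liver. The wild-type Wy14643 pool was 4.93-fold above its control and 5.44-fold above PPARα-null liver, and the genotypes were 1.52-fold apart on the control diet. Slc25a17, the peroxisomal carrier of coenzyme A, FAD and NAD, had 37.0 and 89.2 in wild-type and 27.0 and 24.8 in PPARα-null liver, 2.41-fold higher on Wy14643 in wild-type liver and 3.60-fold higher than in PPARα-null liver. Its other probe set was below background on all arrays. Slc25a26, the carrier of the methyl donor S-adenosylmethionine, had 19.1, 19.8, 19.3 and 20.0, and Slc25a51, the NAD carrier, had 349.9, 262, 337 and 339.9. The former did not differ between any pools by more than 1.04-fold, and the latter was 1.33-fold lower on Wy14643 in wild-type liver, under the threshold.

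Iron is brought into mitochondria by the mitoferrins Slc25a28 and Slc25a37. Slc25a28 had 43.8 and 29.1 in wild-type and 39.8 and 56.2 in PPARα-null liver, so Wy14643 went with the lowest level in one genotype and the highest in the other, 1.93-fold apart. Slc25a37 had 126, 151, 113 and 137 and was 1.20-fold and 1.21-fold higher on Wy14643 in wild-type and PPARα-null liver. Slc25a39, the mitochondrial glutathione importer, had 5172, 6075, 5361 and 5448 at its brightest probe set. Its dimmest gave 896, 1407, 1031 and 1109, a log2 ratio of 0.65 for Wy14643 in wild-type liver where the brightest gave 0.23.

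Of the carriers with other or unassigned roles, Slc25a46, an outer membrane protein that takes part in mitochondrial dynamics, had 306 and 478 in wild-type and 266 and 277 in PPARα-null liver. It was 1.56-fold higher with Wy14643 in wild-type liver and 1.73-fold higher than in PPARα-null liver. The difference between the genotypes in the change on Wy14643 was 0.584 on the log2 scale, just under the threshold. A dimmer probe set gave 199, 547, 138 and 84.8, a larger spread with the same pool on top. On Wy14643 in PPARα-null liver this probe set was 1.63-fold lower, where the brightest was 1.04-fold higher. The probe sets thus differ on the null response. Slc25a47, a carrier whose transcript is largely restricted to liver, had 3664, 3347, 3634 and 3118 and stayed within 1.17-fold in every comparison.

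**Figure D4:**
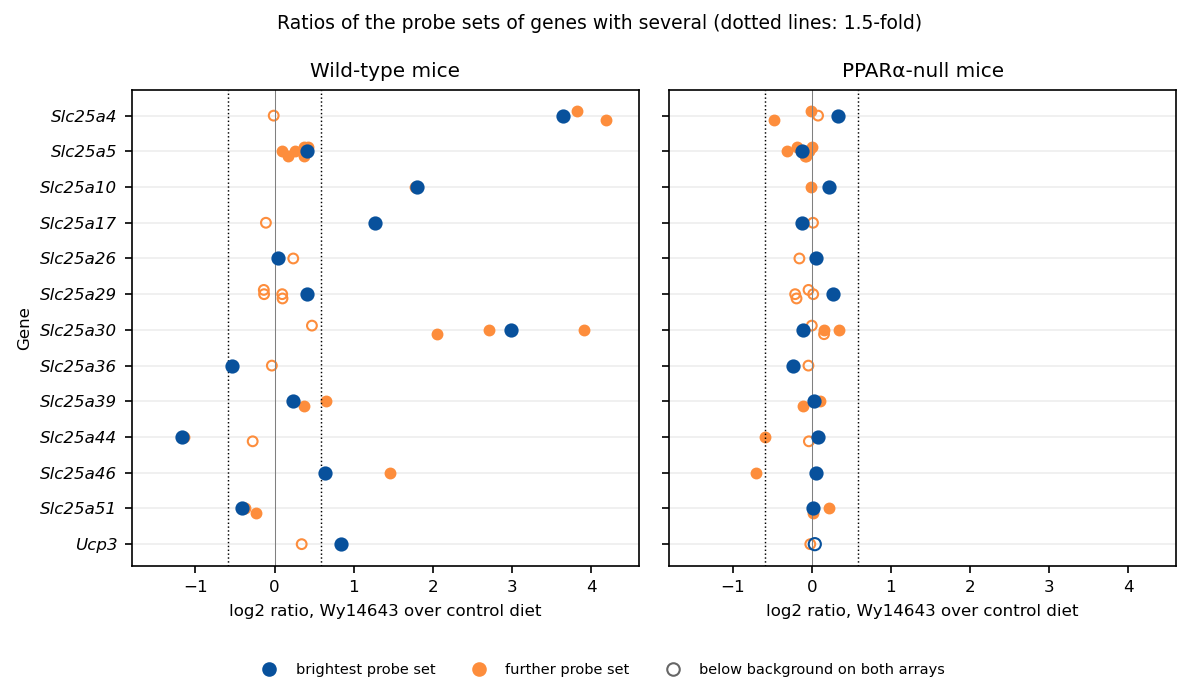
Log2 ratio of Wy14643 over control diet in each genotype (1 panel each) for every probe set of the 13 carriers with several probe sets and 1 or more above background, the brightest in blue, the others in orange, and those below background on both arrays as open circles. In wild-type mice the filled points of Slc25a4 and Slc25a30 lay between 2.06 and 4.19, while in PPARα-null mice they lay between -0.48 and 0.35. The point at 2.06, of Slc25a30, has a control value below background, and against background its ratio was at least 1.76.

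Further probe sets gave a second reading for some carriers. For carriers called between the genotypes on Wy14643, all 15 further probe sets above background had the direction of the brightest one and 9 also reached 1.5-fold. For Wy14643 in wild-type liver, 8 of 8 had the same direction and reached 1.5-fold. Both counts hold a Slc25a30 probe set that passed background only in the wild-type Wy14643 pool, where it is high. Slc25a5, with 8 probe sets, gave more of the 15 than any other carrier. Between wild-type and PPARα-null liver on the control diet, 4 of 5 had the same direction and 3 reached it. Probe sets of 1 gene read the same pool of RNA and are no replicates of the condition.

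Genes that act with the carriers were listed by role, 67 of them above background. On Wy14643, 29 reached a 1.5-fold higher level in wild-type liver relative to PPARα-null liver and 9 were lower, against 16.4% and 17.4% of all genes, with a median log2 ratio of 0.47. On the control diet none passed in either direction, where 2.45% of all genes were higher and 2.47% lower. The translocases of the outer and inner membranes, which bring carrier proteins into mitochondria, had 10 of 18 higher and none lower on Wy14643 in wild-type liver, where 14.8% of all genes were higher and 15.8% lower. Tomm40, the pore of the outer membrane translocase, had 69.2 and 171 in wild-type and 52.8 and 58.3 in PPARα-null liver, and Timm10 and Timm9, small chaperones that guide carriers across the intermembrane space, were 2.37-fold and 2.21-fold higher on Wy14643 in wild-type liver. In PPARα-null liver none of the 18 was higher and 1, Timm8b, was lower, where 2.26% of all genes were higher and 4.38% lower. ATP synthase uses the ADP and phosphate that Slc25a4, Slc25a5 and Slc25a3 import. Of 15 genes for its subunits and its inhibitor Atpif1, 2 were higher on Wy14643 in wild-type liver (Atp5o and Atp5d, 1.61-fold and 1.58-fold). This share was below the 14.8% of all genes, and none of the 15 was lower. Their median log2 ratio was 0.41 against 0.02 over all genes.

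Enzymes on either side of the carriers differed in direction, and the lists are short, so their counts are read only beside the 14.8% higher and 15.8% lower among all genes. Beside the coenzyme A carrier Slc25a42, Ppcs, an enzyme of coenzyme A synthesis, had 81.3 and 636 in wild-type and 64.9 and 58.3 in PPARα-null liver. Of 5 measured genes for coenzyme A synthesis, 3 were higher on Wy14643 in wild-type liver (Ppcs, Coasy and Pank1). Beside Slc25a11 and Slc25a13, the cytosolic aminotransferase Got1 of the malate-aspartate shuttle had 2906 and 259 in wild-type and 2978 and 3117 in PPARα-null liver, an 11.2-fold lower level on Wy14643, while its mitochondrial counterpart Got2 was 1.56-fold higher. Beside the glutamate carrier Slc25a22, 2 of 5 genes for glutamate and glutamine enzymes were lower (Gpt2 3.22-fold and Oat 2.18-fold) and none was higher. In PPARα-null liver Gpt2 was 1.67-fold higher.

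Of the remaining lists on Wy14643 in wild-type liver, 1 of 5 genes for folate and S-adenosylmethionine use was lower (Gldc, 2.06-fold), 1 of 7 for heme synthesis and iron use was higher (Alad, 1.52-fold), 1 of 2 for mitochondrial calcium was higher (Letm1, 1.60-fold), and none of 4 for the pyruvate carrier and outer membrane channels passed in either direction. Of these 4, the channel gene Vdac2 had the largest ratio, 1.43-fold higher. Of the SLC25 proteins under other symbols, both in the outer membrane, Mtch1 was 2.21-fold lower and Mtch2 1.59-fold higher.

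The arrays read whole liver, in which fewer cells of a type and less RNA per cell cannot be told apart. Of 9 Kupffer cell markers above background, 8 were lower on Wy14643 in wild-type liver and 9 in PPARα-null liver, and the summed intensity of the 11 measured markers went from 1296 to 510.3 and from 1570.2 to 779.6. Of 9 hepatocyte markers, 3 were lower in wild-type liver (Tat, Cps1 and Fgb) and none in PPARα-null liver, with summed intensities of 84064 and 74333 in wild-type and 84594 and 83451 in PPARα-null liver. Neutrophil markers S100a8 and S100a9 were highest in PPARα-null liver on Wy14643, where the sum of the 5 markers was 253 against 55.1 to 63.6 in the other pools. Among all genes counted, 15.8% were lower on Wy14643 in wild-type liver and 4.38% in PPARα-null liver, and the marker lists are short. The part of these cell types in the carrier values was not tested.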

How the data were processed

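The authors deposited linear intensity values for 4 Affymetrix MOE430A arrays, obtained by GCRMA (2.20 per the submitters' processing notes), a method of background correction, quantile normalization and summary of probes per probe set. Which arrays were normalized together is not given in the sources used here. Of 22690 probe sets, 64 controls were left out. Of the other 22626, 20380 carry 1 gene symbol, 691 several and 1555 none, and those with 1 symbol were used. Each gene was represented by its brightest probe set, judged by the mean of all 4 arrays. Intensities were turned into log2 ratios for 4 comparisons and called at 1.5-fold, the threshold of the methods for this study. Where 1 array of a comparison was below background, the fold was computed against background as a bound, while counts use the deposited values.

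The carriers, the gene lists and the alternatives were chosen with earlier results of these data known. Carriers above background are given with every array, those below it on all arrays by name, and of each partner list the 1 to 4 genes with the largest ratio; a few markers and other genes were picked after their values were seen. Kupffer, stellate, endothelial, biliary, lymphocyte, neutrophil, erythroid, brown adipocyte, muscle and hepatocyte markers were checked. The calculation was tested on simulated data. Promoters came from the RefSeq table of GRCm38.p6. Alternatives changed the offset, normalization (limma 3.58.1, R 4.3.3), probe set and treatment of dim values. The software was Python 3.11.15, numpy 2.4.6, pandas 2.3.3 and matplotlib 3.10.9.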

Additional observations from a re-analysis of the deposited data

Results flagged for a closer look

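For 2 carriers, the change on Wy14643 reached 1.5-fold in one genotype and in the other went the opposite way by more than 0.28 on the log2 scale, the standard deviation of all probe sets' log2 ratios between the PPARα-null arrays. The difference was not tested because each group has 1 array. The log2 ratio of Wy14643 over control diet for Slc25a25 was -0.69 in wild-type and 0.30 in PPARα-null liver. For Slc25a28 it was -0.59 in wild-type and 0.50 in PPARα-null liver. Over genes above background that standard deviation was 0.33, and Slc25a25 lies within it. Other carriers had opposite signs with a smaller value in PPARα-null liver, such as Slc25a23 with -0.95 and 0.16 and Slc25a30 with 2.99 and -0.11.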

How the results depend on the processing

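No paired analysis was possible because each group has 1 array, and leaving out an array would leave a group empty. The count of carriers lower in wild-type liver on Wy14643, 5 as given, was 2 with 32 added to every intensity, and 3 with the median over all probe sets of a gene, with the brightest probe set without a suffix, with only genes above background on both arrays, and with values raised to background. On the control diet, adding 32 changed the count of higher carriers from 6 to 3 and of lower ones from 1 to 0. The median log2 ratio of the carriers, 0.31 as given for wild-type over PPARα-null liver on Wy14643, lay between 0.11 and 0.46, and that for Wy14643 in wild-type liver, 0.33 as given, between 0.09 and 0.45. Among single carriers, 3 values changed sign, all with the brightest probe set without a suffix: Slc25a36 between the genotypes on Wy14643 to 0.20, and Slc25a4 to -0.0105 for Wy14643 in wild-type liver and to -0.0903 for the difference between the genotypes. Both probe sets are below background on all arrays. With the same probe set, the Slc25a4 ratio between the genotypes on Wy14643 fell from 4.15 to 0.015, under the threshold. Between the genotypes on Wy14643, dim carriers lost their calls with values raised to background, Ucp3 at 0.11, Slc25a36 at -0.31 and Slc25a38 at -0.54, and Ucp3 came to 0.58, just under the threshold, with arrays centred on the median or after cyclic loess. The probe-set median gave -0.49 for Slc25a44 and 0.49 for Slc25a5 between the genotypes on Wy14643, and 0.58 for Slc25a17 on Wy14643 in wild-type liver, all under the threshold. With 32 added, Slc25a28 came to -0.53 between the genotypes on Wy14643 and to -0.31 on Wy14643 in wild-type liver, and Slc25a45 to 0.41 between the genotypes. The difference between the genotypes in the change of Slc25a45 on Wy14643 also came to 0.41. With 1 array per group, no ratio has a replicate error.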

Other observations

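Cell type markers not used beside the carriers were counted in the same way. Among all genes counted, 15.8% were lower on Wy14643 in wild-type liver. In PPARα-null liver 4.38% were lower and 2.26% higher. For Wy14643 in PPARα-null liver, 4 of 8 sinusoidal endothelial markers were lower and none higher, and in wild-type liver 2 of 7 were lower. Of the stellate cell markers, 3 of 6 were lower on Wy14643 in wild-type liver, and in PPARα-null liver 2 of 7 were higher and 1 lower. Of the biliary markers 1 of 4 was above background, and of the erythroid markers only Alas2, an enzyme of heme synthesis, with 15.1, 11.0, 15.5 and 13.6 across the pools. Lymphocyte markers stayed near background, with summed intensities of the 5 measured between 48.7 and 57.6.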
